A study of Mus musculus with 3 samples.

Results

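The genes described here are 9 regulators and targets of skeletal muscle differentiation: Myod1, Myf5, Myf6, Myog, Mef2c, Cdkn1a, Des, Ckm and Acta1. They were located by 8 points on the mouse genome build mm9, given to the nearest 1 kb or more coarsely, with Myf5 and Myf6 sharing a point, and they were not checked against an mm9 gene annotation. Every region of 2 deposited lists within 100 kb of a point, by its nearest edge, was taken. That gave 8 of the 19549 KAP1 peaks and 13 of the 39526 H3K9me3 regions. The lists come from chromatin immunoprecipitation with sequencing in proliferating C2C12 cells, an established myoblast line of C3H mouse origin grown in serum. There was 1 library with a homemade rabbit antibody against KAP1 and 1 with an antibody against histone H3 trimethylated at lysine 9, so no value has a replicate. Another library, made without antibody, was not analysed here. The libraries share cell line and growth state, and no differentiated cells are among them. The files hold no expression values, so the myoblast label was not checked against marker genes.

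Myoblasts leave the cell cycle and fuse into muscle fibres under the control of the myogenic factors MyoD, Myf5, myogenin and Myf6. These are basic helix-loop-helix proteins that bind E-boxes, short sites with the letters CANNTG, often beside MEF2 proteins. KAP1, also called TRIM28, is a scaffold that is brought to DNA by KRAB zinc finger proteins, and there its partner SETDB1 trimethylates lysine 9 of histone H3. The study asked about another role, in which KAP1 works with MyoD at muscle genes of myoblasts and a phosphorylation of KAP1 at the onset of differentiation switches it from repression to activation. In that model the repressive partner at muscle genes is G9a, which is known mainly for mono- and dimethylation of the same lysine, so H3K9me3 is not its direct readout. The comparison below asks where the KAP1 peaks and H3K9me3 regions of undifferentiated cells lie around these genes.

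Of the 8 points, only that of Des lay inside a KAP1 peak, and none lay inside an H3K9me3 region. Few positions are inside either. Over the 6 chromosomes, 1.88% of positions lay inside or within 1 kb of a KAP1 peak and 4.40% of an H3K9me3 region. Summed over the chromosomes of the 8 points, this gives 0.149 and 0.344 points, so none inside H3K9me3 is near the level of all positions. Des encodes desmin, the intermediate filament protein of muscle. The Des peak ran on chromosome 1 from 75356661 to 75357125, from 339 bp left of the point to 125 bp right of it. The point is given to 1 kb, and moved by 0.5 kb to the left or right (a shift chosen after seeing the data), it lay 0.161 or 0.375 kb outside the peak. Whether the start of the gene is inside the peak is therefore not settled by these values. The other 7 points lay between 22.7 and 228 kb from the nearest KAP1 peak. The nearest H3K9me3 region lay between 9.16 kb (Cdkn1a) and 154 kb (Ckm) from the 8 points.

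The promoter of Des is shown because a KAP1 peak covers the point given for that gene. Those of Myog, Ckm and Acta1 are shown beside it because they belong to muscle genes of the set whose points lay inside no KAP1 peak. The sequences are the 250 bases before the start of each gene, 5′ to 3′ in the direction of the gene, from RefSeq for GRCm38.p6, a build other than mm9. Their positions in that build are chr1:75360042-75360291, plus strand (Des), chr1:134289754-134290003, plus strand (Myog), chr7:19410844-19411093, plus strand (Ckm) and chr8:123894776-123895025, minus strand (Acta1). Capitals mark matches to the E-box CANNTG.
Des: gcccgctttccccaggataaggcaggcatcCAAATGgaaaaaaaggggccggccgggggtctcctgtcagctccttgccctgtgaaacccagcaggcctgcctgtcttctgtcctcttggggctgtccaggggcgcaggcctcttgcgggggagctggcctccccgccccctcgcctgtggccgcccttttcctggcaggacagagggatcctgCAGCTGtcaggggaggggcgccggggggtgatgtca
Myog: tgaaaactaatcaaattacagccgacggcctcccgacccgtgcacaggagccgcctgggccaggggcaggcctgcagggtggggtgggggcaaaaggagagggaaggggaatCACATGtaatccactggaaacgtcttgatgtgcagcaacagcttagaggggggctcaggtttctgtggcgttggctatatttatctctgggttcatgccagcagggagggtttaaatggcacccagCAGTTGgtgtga
Ckm: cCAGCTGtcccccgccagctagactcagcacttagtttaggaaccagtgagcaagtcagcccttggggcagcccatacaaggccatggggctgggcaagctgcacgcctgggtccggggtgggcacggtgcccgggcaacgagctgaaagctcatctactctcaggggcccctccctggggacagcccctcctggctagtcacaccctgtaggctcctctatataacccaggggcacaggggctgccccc
Acta1: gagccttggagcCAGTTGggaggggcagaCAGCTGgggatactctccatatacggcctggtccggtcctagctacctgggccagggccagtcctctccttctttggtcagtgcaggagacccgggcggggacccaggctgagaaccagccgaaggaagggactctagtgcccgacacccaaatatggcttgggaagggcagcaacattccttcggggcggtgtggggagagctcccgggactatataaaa

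E-boxes were searched as CANNTG and as its subset CAGCTG. Both motifs read the same on the other strand, so a search of 1 strand covers both. The RefSeq table held 10 promoters for 7 of the 9 genes, with 3 for Mef2c and 2 for Cdkn1a, and none for Myod1 and Myf6. CANNTG was found in 7 of the 10 promoters, and 66.2% of all 32851 promoters of that length held it. CAGCTG was found in 3 of the 10, those of Des, Ckm and Acta1, and in 13.0% of all promoters. In Des the CAGCTG began 36 bases before the start of the gene and a CAAATG 220 bases before it. In Myog the matches were a CACATG at 138 bases and a CAGTTG at 12 bases. Ckm had its CAGCTG at 249 bases, and Acta1 had a CAGTTG at 238 and a CAGCTG at 221 bases. Among the 3 genes with CAGCTG in this window, the Des point was in a KAP1 peak and those of Ckm and Acta1 were 65.4 and 228 kb from one. The Myf5 promoter in the table held no CANNTG.

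Within 100 kb, 5 of the 8 points had a KAP1 peak: Myod1, Myog, Cdkn1a, Des and Ckm. Over the 6 chromosomes that hold the points, 61.3% of all positions had one that near, counted base by base over the span of each chromosome that the lists reach. Summed over the chromosomes of the 8 points, this gives 4.88 points. An H3K9me3 region lay within 100 kb of 6 of the 8 points, all but Mef2c and Ckm. For that list 83.8% of positions had a region that near, which gives 6.63 points. Both counts were near the level of all positions. Both kinds of region were present at 4 points (Myod1, Myog, Cdkn1a and Des), KAP1 alone at Ckm, H3K9me3 alone at Myf5 and Myf6 and at Acta1, and neither at Mef2c. The Mef2c point is given only as 83.7 Mb, so whether its window is empty is not settled.

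**Figure D1:**
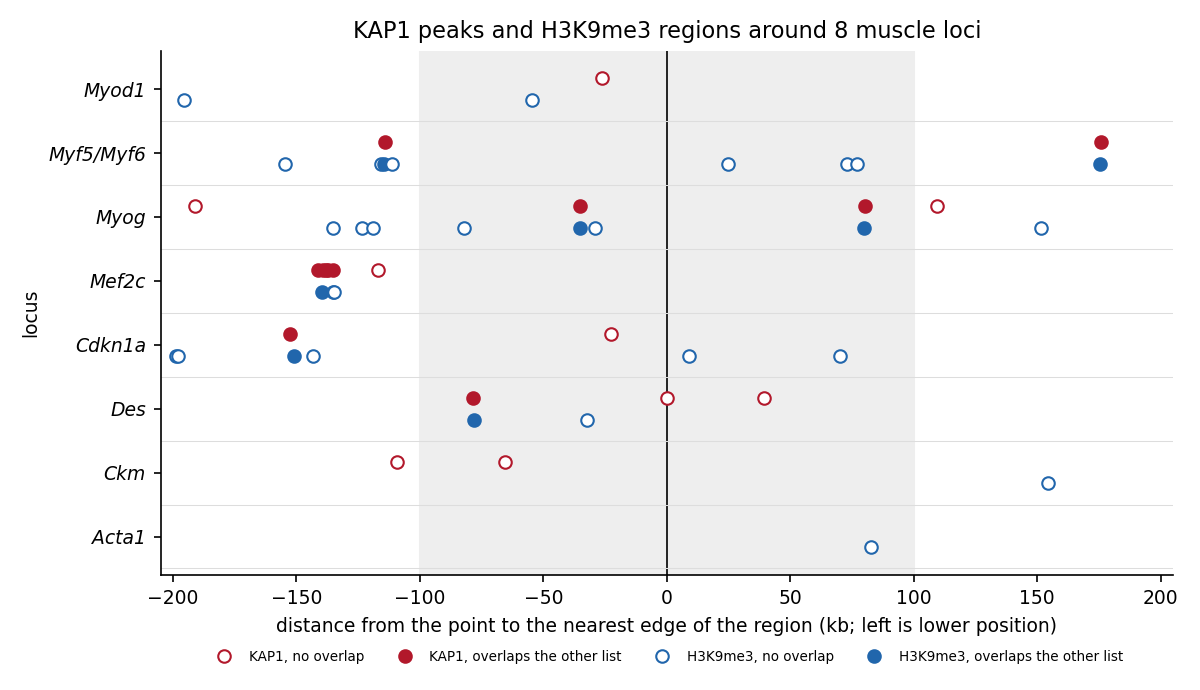
Regions within 200 kb of each point, with the distance from the point to the nearest edge in kb on the horizontal axis and the loci on the vertical axis. Red circles are KAP1 peaks, blue circles H3K9me3 regions, filled where they share at least 1 bp with the other list, and the grey band is the 100 kb window. The Des point alone has a circle on the zero line, and the Mef2c band is empty in both lists.

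The 8 KAP1 peaks were of low to middling score. The score is the authors' own value for a peak, never under 70 in this list, and it is used only to rank peaks within the list. The 8 scores ran from 75.1 to 130.0 with a median of 92.5, and 6 of them were below the list's median of 106. Their widths ran from 333 to 660 bp, against a list median of 651 bp. Of the 8 peaks, 3 (37.5%) overlapped an H3K9me3 region by at least 1 bp, against 44.1% of the whole list. They were both peaks near Myog and the leftmost peak near Des. The 13 H3K9me3 regions scored from 17 to 154 with a median of 50, close to that list's median of 53. Of these, 3 (23.1%) overlapped a KAP1 peak, against 15.4% of the whole list.

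**Figure D2:**
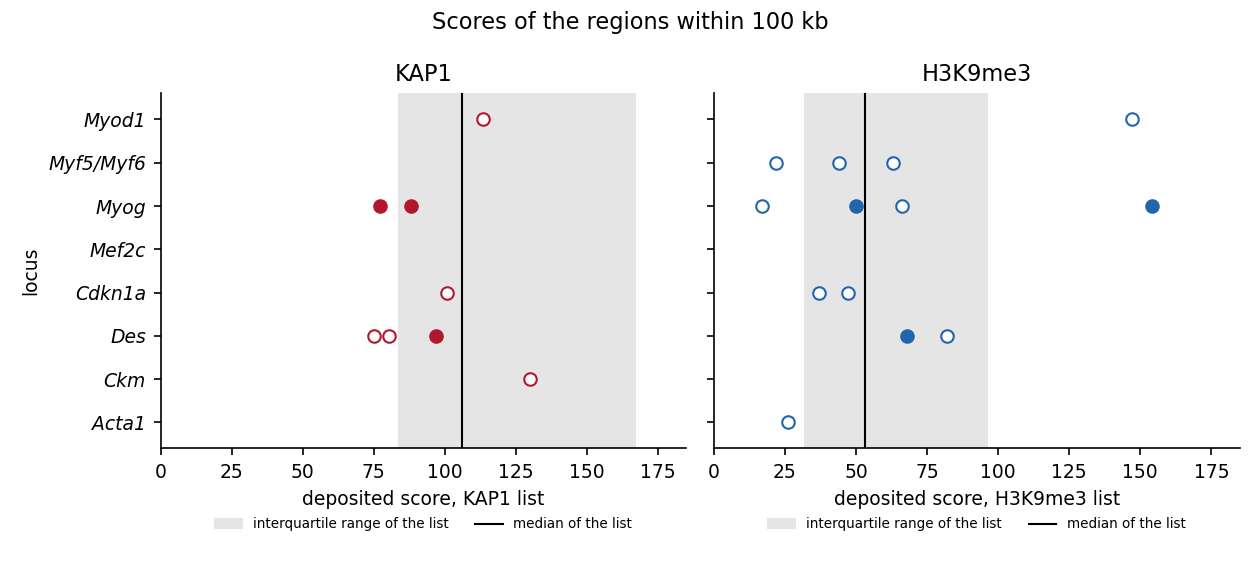
Deposited scores of the regions within 100 kb of the points, KAP1 on the left and H3K9me3 on the right, on a linear axis without units. Circles are regions, filled where they overlap the other list. The line and grey band give the median and interquartile range of the whole list, and 6 of the 8 KAP1 peaks lie left of the KAP1 median.

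Myod1 encodes MyoD, the factor that can turn other cell types into muscle. Its only KAP1 peak within 100 kb was on chromosome 7 at 53605363 to 53605941, 26.1 kb left of the point. That peak scored 114, higher than 55.3% of the list, and shared no base with H3K9me3. The only H3K9me3 region was at 53575386 to 53577447, 54.6 kb left of the point. It was broad, at 2062 bp, with a score of 147 above 85.6% of its list. The peak and the region were 27.9 kb apart. On chromosome 7, 20.4% of positions were as close to KAP1 or closer and 53.4% to H3K9me3. To the right the next KAP1 peak was 334 kb away and the next H3K9me3 region 803 kb away. The KAP1-free stretch around the point measured 360 kb, and 55.5% of chromosome 7 lay in stretches at least that long. The H3K9me3-free stretch measured 858 kb, for which the share was 7.28%.

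Myf5 and Myf6, the early and the late members of the myogenic family, stand next to each other in the genome. No KAP1 peak lay within 100 kb of their point. The nearest was on chromosome 10 at 106805140 to 106805956, 114 kb to the left, with a score of 102, and it overlapped H3K9me3. On chromosome 10, 70.9% of positions were as close to a KAP1 peak or closer. There were 3 H3K9me3 regions in the window, all to the right. The nearest, at 106944626 to 106945359, was 24.6 kb away with a score of 63. The others, at 106992803 to 106992945 and 106997108 to 106997565, were 72.8 and 77.1 kb away and scored 22 and 44. Chromosome 10 is rich in H3K9me3 regions, and 51.9% of its positions were as close to one as this point or closer.

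Myog encodes myogenin, which MyoD switches on as differentiation begins. It was the locus with the most H3K9me3 regions in the window, 4, and its 2 KAP1 peaks both coincided with one. The left peak, on chromosome 1 at 136151505 to 136152041, was 35.0 kb from the point with a score of 77.1. It shared 400 bp, or 74.5% of its width, with the H3K9me3 region at 136151381 to 136151904 (score 50). The right peak, at 136267317 to 136267649, was 80.3 kb from the point with a score of 88.0. It lay wholly inside the H3K9me3 region at 136266696 to 136268394, which was 1699 bp wide with a score of 154. The remaining H3K9me3 regions were at 136157333 to 136157944, the nearest of all at 29.1 kb, and at 136104687 to 136104819, 82.2 kb away, with scores of 66 and 17. Myog therefore stood in a stretch of 115 kb without a KAP1 peak and of 109 kb without an H3K9me3 region. Stretches at least that long held 85.7% of chromosome 1 for KAP1 and 61.9% for H3K9me3. Of the positions of chromosome 1, 31.2% were as close to KAP1 or closer and 49.2% to H3K9me3.

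Mef2c encodes a MADS-box factor that works with the myogenic factors. Its point had no region of either list within 100 kb. The gene is long, with 3 start sites in RefSeq, and which part of it the point marks was not determined. The promoters before these starts end at 83504033, 83523655 and 83573606 of chromosome 13 in GRCm38.p6, and the point is given only as 83.7 Mb. The distances and shares below are those of the point. Whether a start site has a region within 100 kb was not determined. The nearest KAP1 peak was on chromosome 13 at 83582553 to 83583131, 117 kb to the left, with a score of 78.3. The nearest H3K9me3 region, at 83564887 to 83565041, was 135 kb to the left with a score of 22. Only 6.10% of the positions of chromosome 13 were farther from an H3K9me3 region than this point. For KAP1, 32.7% were farther. Between 117 and 142 kb to the left stood a run of 6 KAP1 peaks and 3 H3K9me3 regions. Of those peaks 5 overlapped H3K9me3, against 44.1% of the whole KAP1 list. Of the regions 2 overlapped KAP1, against 15.4% of the whole H3K9me3 list. The highest peak of the run, at 83559016 to 83560983, scored 426, above 95.2% of the list. This run was singled out after its values were seen.

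Cdkn1a encodes the cell cycle inhibitor p21, which rises as myoblasts stop dividing. It was the point closest to an H3K9me3 region. That region, on chromosome 17 at 29237165 to 29237573, was 9.16 kb to the right with a score of 47, and 24.0% of chromosome 17 positions were as close or closer. The other H3K9me3 region of the window, at 29298173 to 29298529, was 70.2 kb to the right with a score of 37. The only KAP1 peak was on the opposite side, at 29204760 to 29205327, 22.7 kb to the left. It scored 101, above 45.4% of the list, and was 31.8 kb from the nearest H3K9me3 region. As close to KAP1 or closer were 22.7% of chromosome 17 positions. Neither place held in the upper 50% of the lists by score, where the nearest H3K9me3 region was 151 kb away, with 80.3% of positions as close or closer, and the nearest KAP1 peak 153 kb, with 57.0%. A stronger peak stood outside the window at 153 kb, from 29074487 to 29075304, with a score of 324 and all of its width in H3K9me3. It too was singled out after its values were seen.

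Des had the most KAP1 peaks, 3 in the window. The one at the point scored 80.4, above 19.7% of the list, and was 465 bp wide. KAP1 peaks covered 0.578% of chromosome 1, so few positions are inside a peak. This peak shared no base with H3K9me3, and its nearest H3K9me3 region was 31.9 kb away. The left peak, at 75278188 to 75278599, was 78.4 kb from the point with a score of 96.9, and all of its width lay in the H3K9me3 region at 75277944 to 75278797 (score 68). The right peak, at 75396319 to 75396820, was 39.3 kb from the point with a score of 75.1 and was 71.6 kb from the nearest H3K9me3 region. The other H3K9me3 region, at 75324040 to 75324749, lay 32.3 kb left of the point with a score of 82. In the upper 50% of the list by score none of the 3 peaks remained, and the nearest peak was then 354 kb from the point.

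Ckm encodes muscle creatine kinase, an enzyme of the contracting fibre. Its only KAP1 peak in the window was on chromosome 7 at 19929952 to 19930611, 65.4 kb left of the point. It had the highest score of the 8, 130.0, above 63.6% of the list, and lay 220 kb from the nearest H3K9me3 region. For KAP1, 41.6% of chromosome 7 positions were as close or closer. No H3K9me3 region was in the window. The nearest, at 20150270 to 20150678, was 154 kb to the right with a score of 41, and 83.8% of chromosome 7 positions were as close or closer. Just outside the window, 109 kb left of the point at 19886404 to 19886940, stood a KAP1 peak with a score of 1387, above 98.6% of the list. It was 263 kb from the nearest H3K9me3 region and was singled out after its values were seen.

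Acta1 encodes skeletal muscle alpha-actin, the actin of the thin filament. It was the point farthest from KAP1. Its nearest peak, on chromosome 8 at 126644464 to 126645146, was 228 kb to the right with a score of 223, and on the left the next was 254 kb away. The only H3K9me3 region of the window, at 126498680 to 126498938, was 82.7 kb to the right with a score of 26. On chromosome 8, 83.5% of positions were as close to KAP1 or closer and 71.6% to H3K9me3. Beyond the window the neighbourhood was dense in KAP1. Between 254 and 458 kb to the left stood 56 peaks with a median score of 2641. Of these, 7 overlapped H3K9me3, against 44.1% of the whole KAP1 list. Between 253 and 466 kb to the left stood 10 H3K9me3 regions. Of these, 8 overlapped a KAP1 peak, against 15.4% of the whole H3K9me3 list. This run of KAP1 peaks, too, was singled out after its values were seen. Its highest score was 3160, against 3213 for the highest of the whole list. Whether the run stands on repeated sequence, and how reads were placed there, was not examined. Acta1 thus lay in a KAP1-free stretch of 482 kb beside a dense run of high-scoring peaks, and 42.3% of chromosome 8 lay in stretches at least that long.

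**Figure D3:**
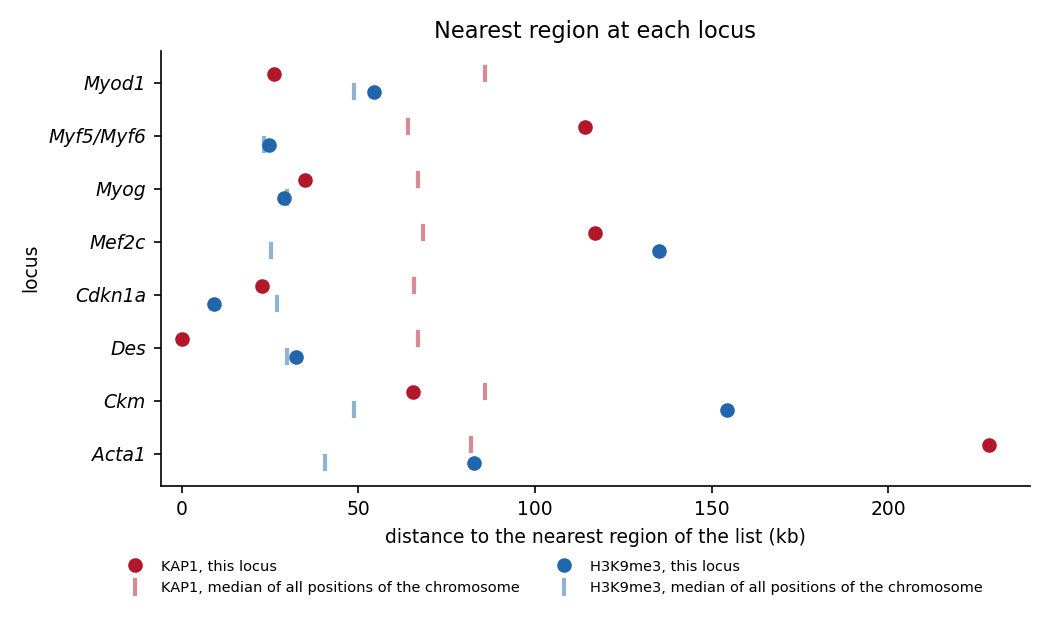
Distance in kb from each point to the nearest KAP1 peak (red dots) and H3K9me3 region (blue dots), with loci on the vertical axis. Bars give the median distance over all positions of the same chromosome. KAP1 dots lie left of their bar at 5 of the 8 points, and H3K9me3 dots at 2, of which Myog is left by only 0.704 kb.

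In order of distance to KAP1 the points ran from Des, inside a peak, through Cdkn1a at 22.7 kb, Myod1 at 26.1 kb, Myog at 35.0 kb, Ckm at 65.4 kb, Myf5 and Myf6 at 114 kb and Mef2c at 117 kb to Acta1 at 228 kb. The points are known to no better than 1 kb. Those of Myf5 with Myf6 (106.92 Mb) and of Mef2c (83.7 Mb) are given with fewer digits than the rest. Cdkn1a and Myod1 are close neighbours in this order. Myf5 with Myf6 and Mef2c are too, and which of them comes first is not settled. The first 5 of these points were closer to KAP1 than the median position of their chromosome, and the other 3 were farther. Mef2c was farther by 48.6 kb. With its point given only as 83.7 Mb, its side of the median is not settled. In order of distance to H3K9me3 the points ran from Cdkn1a at 9.16 kb, Myf5 and Myf6 at 24.6 kb, Myog at 29.1 kb, Des at 32.3 kb, Myod1 at 54.6 kb, Acta1 at 82.7 kb and Mef2c at 135 kb to Ckm at 154 kb. With points this coarse, which of Mef2c and Ckm came last is not settled. Nor is it settled which of Myf5 with Myf6 and Myog was closer. Here Cdkn1a was closer than the median position by 17.7 kb and Myog by 0.704 kb, less than the 1 kb to which its point is known. The other 6 were farther, Myf5 with Myf6 by 1.39 kb, Des by 2.49 kb and Myod1 by 5.70 kb. With the point of Myf5 and Myf6 moved 10 kb to the right, 36.8% of chromosome 10 positions were as close or closer. On which side of the median that coarsely given point lies is therefore not settled. In the upper 50% of the lists by score, 3 of the 8 points were closer to KAP1 than the median position and 4 to H3K9me3. The nearer region was a KAP1 peak at 4 points and an H3K9me3 region at the other 4. An even split is not the level of all positions to be assumed here, since the H3K9me3 list is longer. Over the 6 chromosomes together the median distance was 71.6 kb to KAP1 and 31.4 kb to H3K9me3. The share of positions with KAP1 nearer was not computed. The genes that MyoD switches on were found at both ends of the KAP1 order, with Des first and Acta1 last.

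Counts at other distance limits were set beside all positions of the same chromosomes. Within 1 kb of a KAP1 peak lay 1 point, against 0.149 from all positions, and within 50 kb 4 points against 3.10. Within 200 kb the count was 7 against 6.65. For H3K9me3, 0 points lay within 5 kb, against 1.03 from all positions, and 1 within 10 kb against 1.76. Within 25 kb the count was 2 against 3.40, the widest gap of the limits run. Within 50 kb the count was 4 against 5.07, and within 200 kb 8 against 7.57. These counts rest on 8 points.

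**Figure D4:**
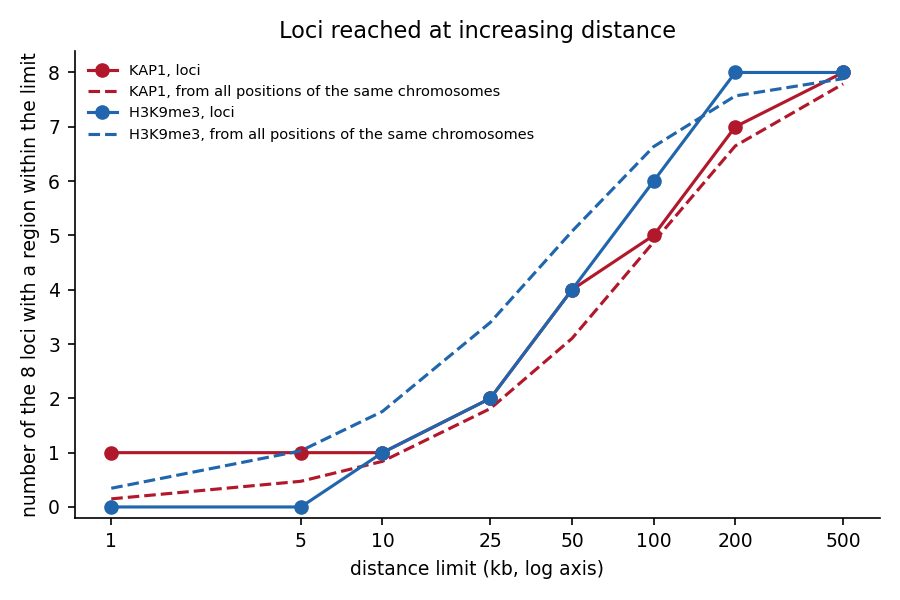
Number of the 8 points with a region within a distance limit in kb (log axis), for KAP1 (red) and H3K9me3 (blue). Solid lines with dots are the points, and dashed lines are the number that all positions of the same chromosomes give. The solid KAP1 line runs at or above its dashed line, and the solid H3K9me3 line runs below its dashed line up to 100 kb.

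The windows held fewer regions than their chromosomes' densities give. The 8 KAP1 peaks compare with 12.2 from density, and the 13 H3K9me3 regions with 24.2. Dense runs raise a mean density, so most positions lie below it. The window count was below density at 6 of the 8 points for KAP1, against 64.6% of positions, and at 7 of 8 for H3K9me3, against 59.3%. Within 1 Mb of the points the count was below density at 7 of the 8 points in each list. For H3K9me3 the 7 include Acta1, which was at density, with 24 regions against 24.1, a ratio of 0.998. Positions were taken 1 kb apart on the same chromosomes, and within 1 Mb 59.1% were below density for KAP1 and 60.6% for H3K9me3. The lowest KAP1 ratio was 0.518 at Myod1, with 7 peaks against 13.5, and the lowest H3K9me3 ratio was 0.543 at Des, with 16 regions against 29.4. The exception for KAP1 was Acta1, with 66 peaks against 13.8. Without the run of 56 peaks to its left, 10 peaks were left there, a ratio of 0.723. The 13.8 in this ratio still counts the run, which makes the ratio too low. The exception for H3K9me3 was Myog, with 33 regions against 29.4.

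The names of the regions carry serial numbers that follow position, and numbers are missing where calls are not in the deposited list. For KAP1, 53.7% of the numbers up to the highest are listed. At Myog, Mef2c and Cdkn1a no number was missing between the listed peaks on either side of the point. At Myod1 and Des 1 number was missing, at Acta1 2, at Myf5 and Myf6 3 and at Ckm 4. If the unlisted calls also follow position, the call set before this selection held no further KAP1 call between the flanking peaks at Myog, Mef2c and Cdkn1a. On the same chromosomes 56.8% of neighbouring peaks had no number missing between them. For H3K9me3 no number was missing at any of the 8 points, as for 89.3% of neighbouring regions. Both shares count each pair of neighbours once, whereas a point falls more often between neighbours that lie far apart. They are therefore not shares of positions and are no like measure for the 8 points.

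At the edge of the window, the farthest KAP1 peak inside was 80.3 kb from its point (Myog, score 88.0), and the next outside were at 109 kb (Ckm, score 1387, and Myog, score 116). The farthest H3K9me3 region inside was 82.7 kb away (Acta1, score 26), and the next outside was at 111 kb (Myf5 and Myf6, score 45).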

How the data were processed

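Per the submitters' processing notes, Bowtie2 2.2.1 and mm9 were used. The authors deposited 1 list per antibody, with a score for each region. KAP1 names have the form MACS writes. What made the H3K9me3 calls, the settings of either calling step, the meaning of the scores, the read depth and any use of the library without antibody as control were not given in the sources used here. Absence from a list therefore sets no detection limit. Starts were read as counted from 0 and are printed from 1. The points, genes and lists of motifs were chosen with earlier results of these data known. All 9 genes and every region in a window are named, with the nearest region where a window was empty. Distances run to the nearest edge. In place of random points, every position of a chromosome from the first base in either list to the last was counted, gaps and unmappable sequence included. No test was made, since there is 1 library per antibody. The interval arithmetic was tested on simulated data. An mm9 annotation was not used here, so the planned list of further muscle and corepressor genes was not placed. Alternatives were other windows, score limits, merging, midpoints, overlap rules and points moved by 10 kb, and by 0.5 kb as an addition made after the data were seen. Python 3.11.15, numpy 2.4.6, pandas 2.3.3 and matplotlib 3.10.9 were used.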

Additional observations from a re-analysis of the deposited data

How the results depend on the processing

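The points with a KAP1 peak (5) or an H3K9me3 region (6) changed by no more than 1.5 times under every alternative run except the upper 50% by score, where 2 points had a KAP1 peak. That limit removes weaker regions by construction, leaving 2 KAP1 peaks, 6 H3K9me3 regions and 0 overlapping KAP1 peaks in the windows. Window length moved the counts of regions, which by construction grow with it. With 50 kb there were 5 KAP1 peaks, of which 1 overlapped H3K9me3, and 5 H3K9me3 regions. With 200 kb there were 20, 11 and 31. The other 42 recomputed counts stayed within 1.5 times. With the points moved 10 kb left or right, the Des peak was 9.66 or 9.88 kb away. With the points moved 10 kb to the right, the distance of Cdkn1a to H3K9me3 fell to 0.427 kb, and moved left it was 19.2 kb. No paired analysis was possible because each antibody had 1 library, which also means that leaving out replicates was not an option. Depth is unknown, so a missing region has no stated detection limit.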
